A study of Mus musculus with 6 samples.

Results

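The respiratory chain and the ATP synthase of the inner mitochondrial membrane are described here through the nuclear genes of their subunits in mouse mammary gland. Members were all probe sets (groups of short array probes that read 1 transcript) whose platform annotation names exactly 1 gene with a symbol beginning with Nduf, Sdha to Sdhd, Uqcr, Cox4 to Cox8 or Atp5. The prefix rule also takes in assembly factors such as Ndufaf1 and Sdhaf1, which are not subunits of the finished complex. It found 100 probe sets for 73 genes, of 8251 genes named by a single-gene probe set on the array. Complex I had 31 of these genes, complex II 6, complex III 7, complex IV 15 and complex V 14. A further 10 probe sets that name such a gene together with another gene were left out.

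RNA came from thoracic mammary glands of virgin F1 CF-1/FVB mice, all 16 weeks of age. Wild type mice were compared with mice of the same cross that carry a transgene and overexpress luteinizing hormone (LH), which the pituitary secretes and which drives sex steroid synthesis in the ovary. The sources used here do not give the promoter of the transgene or its line. Each group was read on 3 Affymetrix arrays. A single array carried the combined RNA of 3 mice, so a group holds 9 mice and the spread between its arrays is a spread between pools. The whole gland was used, so its epithelium, fat, vessels and any attached muscle contribute to 1 RNA sample, and fewer cells of a type cannot be told apart from less RNA per cell.

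Complex I (NADH dehydrogenase) and complex II (succinate dehydrogenase) feed electrons into the chain, complex III passes them to cytochrome c, and complex IV (cytochrome c oxidase) hands them to oxygen. Complexes I, III and IV pump protons, and complex V (ATP synthase) uses the proton gradient to make ATP. Several small subunits of complex IV exist as a widely expressed form and as a form of heart, skeletal muscle and brown fat, so that their transcripts also report on tissue composition. In the mammary gland the chain serves fat cells and, as milk synthesis begins, the secretory epithelium.

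Values are the signals the authors deposited, on a linear scale, and a difference is the LH transgenic mean minus the wild type mean of log2(signal + 79.7), where 79.7 is the 20th percentile of all signals and makes fold changes of dim probe sets smaller. "Rose" and "fell" are used for an adjusted p under 0.05 in limma with Benjamini-Hochberg adjustment over the 7453 probe sets whose signal averaged 336.0 or more. Of the 100 member probe sets, 73 (64 genes) passed that level and 27 were too dim to be tested. Signals of different probe sets were not set against each other, since each probe set has its own brightness.

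On all arrays the trimmed mean was 1500.8 or 1500.9, and no array was left out. LH transgenic glands had lower fat cell markers (11 of 13 tested genes fell), lower endothelial markers (9 of 12 fell) and lower skeletal muscle markers (8 of 18 fell), with higher luminal and alveolar epithelial markers (12 of 18 rose) and macrophage markers (6 of 14 rose). The epithelial keratin gene Krt19 and the fat cell gene Adipoq had signals of at least 15490.7 and 29045.0 on every array, so the defining markers of a mammary gland with its fat pad were present. The epithelial markers that rose included milk protein genes such as Csn2 and Wap, as well as Krt19, Cldn3 and Cldn7. Not called were, among others, the epithelial genes Krt8 (0.27), Krt18 (0.04), Epcam (0.19) and Cdh1 (-0.02). The same held for the macrophage genes Csf1r (0.09), Adgre1 (0.24), Fcgr1 (-0.08) and Mrc1 (-0.36). Skeletal muscle markers were uneven among the LH transgenic pools. Their mean level lay 2.09 and 1.77 log2 units below the wild type mean in pools 1 and 2, and 0.17 below it in pool 3. The deposited values are scaled to one common mean. When arrays were scaled to their bacterial hybridisation controls instead, the median difference of all tested probe sets moved from 0.02 to -0.62, so a difference is a difference relative to the bulk of the genes.

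The upstream sequences of 4 members are shown because the results below turn on these genes: Sdha and Uqcrh fell, and Cox6a1 and Cox8b are a widely expressed and a muscle and brown fat form of complex IV subunits. Each is the 250 bases before the transcription start, 5′ to 3′ on the strand of the gene, from RefSeq on GRCm38.p6. Capitals mark matches to the motif of nuclear respiratory factor 1 (NRF1, GCGCA and GCGC with any 1 base between them) or of the ETS factor GABP, also called nuclear respiratory factor 2 (CCGGAAG, which reads CTTCCGG on the other strand). The windows are chr13:74350241-74350490, chr4:116075071-116075320, chr5:115348959-115349208 and chr7:140900447-140900696, all on the minus strand.
Sdha: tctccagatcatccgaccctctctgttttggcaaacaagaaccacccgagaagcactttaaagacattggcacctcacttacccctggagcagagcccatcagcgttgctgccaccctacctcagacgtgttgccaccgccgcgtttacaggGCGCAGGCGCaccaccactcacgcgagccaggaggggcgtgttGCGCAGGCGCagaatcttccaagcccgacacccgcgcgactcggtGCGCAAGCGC
Uqcrh: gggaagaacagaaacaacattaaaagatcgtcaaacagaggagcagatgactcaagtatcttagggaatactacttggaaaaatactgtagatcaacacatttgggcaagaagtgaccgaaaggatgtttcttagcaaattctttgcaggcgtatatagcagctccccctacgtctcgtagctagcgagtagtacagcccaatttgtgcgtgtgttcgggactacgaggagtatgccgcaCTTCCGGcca
Cox6a1: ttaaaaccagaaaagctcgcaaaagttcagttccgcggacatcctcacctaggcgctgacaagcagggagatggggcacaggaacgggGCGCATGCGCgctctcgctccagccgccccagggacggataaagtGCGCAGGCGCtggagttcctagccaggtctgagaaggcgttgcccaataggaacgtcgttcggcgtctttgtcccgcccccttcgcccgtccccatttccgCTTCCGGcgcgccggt
Cox8b: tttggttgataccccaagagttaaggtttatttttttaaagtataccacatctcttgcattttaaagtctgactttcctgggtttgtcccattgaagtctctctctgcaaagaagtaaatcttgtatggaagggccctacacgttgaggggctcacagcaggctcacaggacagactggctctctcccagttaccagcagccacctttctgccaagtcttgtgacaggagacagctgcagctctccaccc

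Sdha held 3 NRF1 matches, Cox6a1 2 NRF1 matches and 1 GABP match, Uqcrh 1 GABP match, and Cox8b none of either. RefSeq windows were found for 60 of the 73 member genes (65 windows, since some genes have several starts). With both strands searched, the NRF1 motif occurred in 10 of the 65 windows (15.4%) and in 1228 of 32851 windows of all genes (3.74%). The GABP motif occurred in 13 of the 65 and in 2269 of 32851 (6.91%). The estrogen-related receptor motif TCAAGGTCA was in 0 of 65 windows against 0.387% of all, and the MEF2 motif (CTA and TAG with any 4 bases between them) in 1 of 65 (1.54%, Cox5b) against 3.20%. NRF1 and GABP matches did not overlap in the 4 windows shown, and a match of letters is no evidence of binding.

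Most subunit genes differed little between the groups. Of the 73 tested member probe sets, 1 rose and 8 fell, which is 1.37% and 11.0%. Among all tested probe sets 10.5% rose and 10.8% fell, so the share that fell was near the background and the share that rose was below it. The 9 calls were in Sdha, Sdhb, Sdhaf1 and Sdhaf2 of complex II, Uqcrh and Uqcr10 of complex III, and Cox6a2, Cox8b and Cox6b2 of complex IV. With 1 array left out, between 1 and 8 member probe sets fell and 0 to 2 rose, the fewest without wild type pool 3. No member of complex I or complex V was called, with 2 of 30 and 2 of 15 probe sets at an unadjusted p under 0.05, against 2593 of all 7453. The median difference of the 73 was -0.07 against 0.02 for all tested probe sets, and 64 of them (87.7%) lay within 0.5 log2 units of 0, compared with 73.8% of all. With the LH transgenic signals lower, the groups did not overlap for 19 of the 73 members. That share was above the 19.8% of all tested probe sets. With the LH transgenic signals higher, the groups did not overlap for 10 members (13.7%), below the 20.6% of all.

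**Figure D1:**
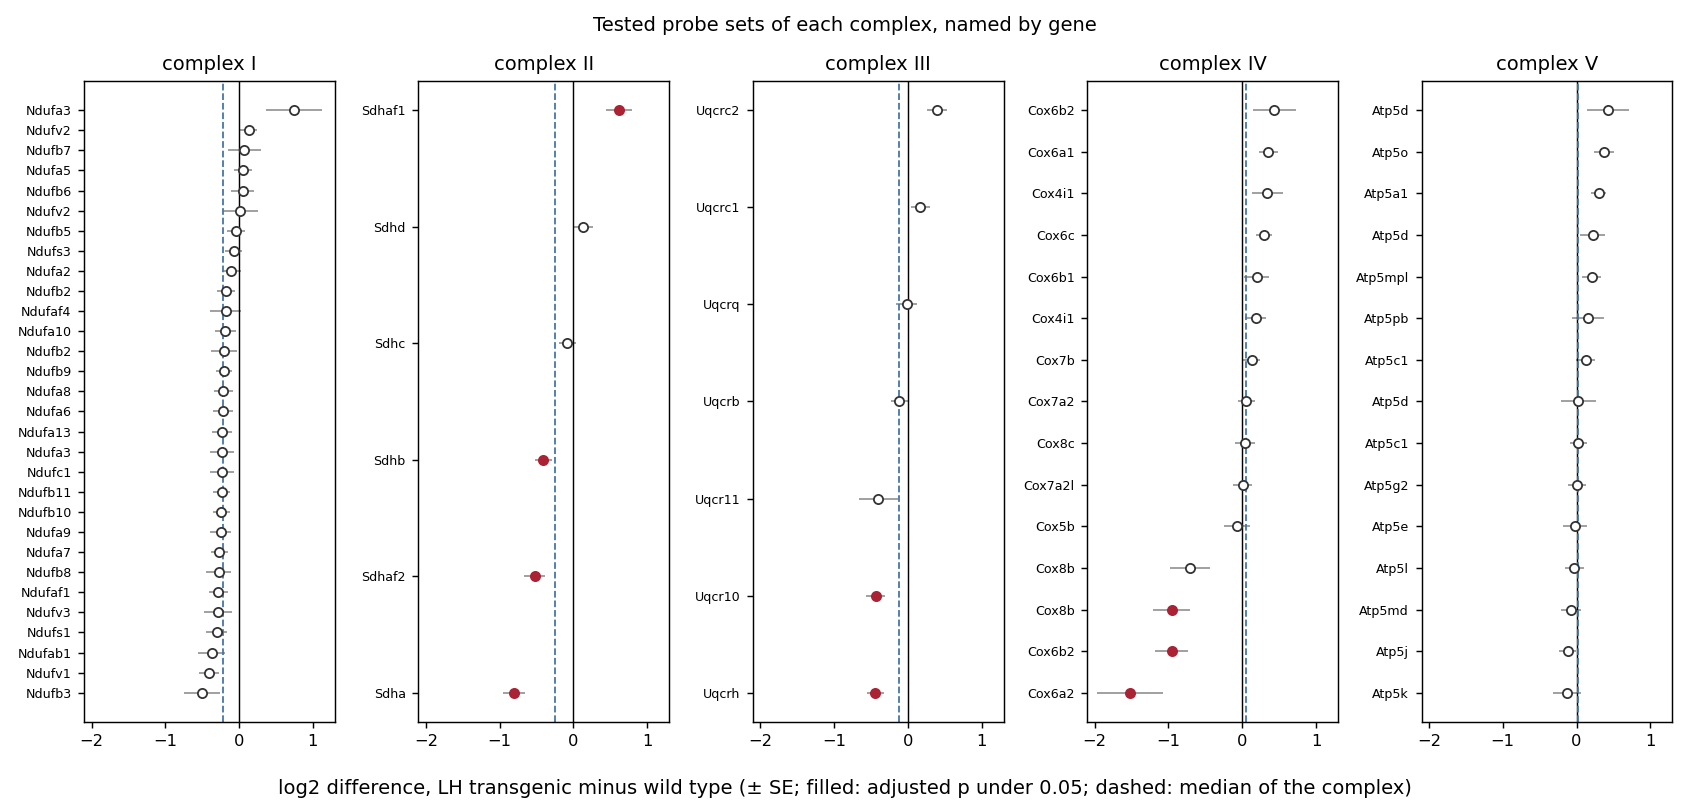
Log2 difference of every tested member probe set (LH transgenic minus wild type, 3 arrays per group, ± SE), in a panel per complex and ordered by size. Filled points had an adjusted p under 0.05; the dashed median lies at -0.22 in complex I, -0.24 in complex II, -0.11 in complex III, 0.05 in complex IV and 0.03 in complex V.

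The complexes differed in how their members lay around 0. In complex I, 24 of 30 tested probe sets (80.0%) had a difference below 0, with a median of -0.22; of all tested probe sets 47.2% lay below 0. In complexes II and III 4 of 6 and 5 of 7 lay below 0, with medians of -0.24 and -0.11. In complexes IV and V 5 of 15 each lay below 0, with medians of 0.05 and 0.03. Averaged over its tested probe sets, complex I lay 0.17, 0.07 and 0.23 log2 units below the wild type mean in LH transgenic pools 1, 2 and 3, and the wild type pools lay at 0.01, -0.12 and 0.11. Wild type pool 2 and LH transgenic pool 2 thus overlapped for complex I. Complex II had levels of -0.11, -0.22 and -0.20 in the LH transgenic pools, all below the wild type range of -0.06 to 0.06. Complex III had -0.21, 0.06 and -0.21 in the LH transgenic pools against -0.08 to 0.06 in wild type, which overlaps. Complex IV had -0.18, -0.08 and -0.17 against -0.06 to 0.11. Its LH transgenic pools thus all lay below the wild type range, although its median difference was 0.05. This average includes the muscle forms Cox6a2 (-1.52) and Cox8b (-0.95 and -0.71) and a probe set of the testis form Cox6b2 (-0.96). Of the 15 probe sets 10 lay above 0, so the average does not describe complex IV as a whole. Complex V had 0.06, 0.19 and 0.05 in the LH transgenic pools against -0.06 to 0.07, which overlaps. Probe sets of a complex share arrays and are not independent, and the difference between complexes was not tested.

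**Figure D2:**
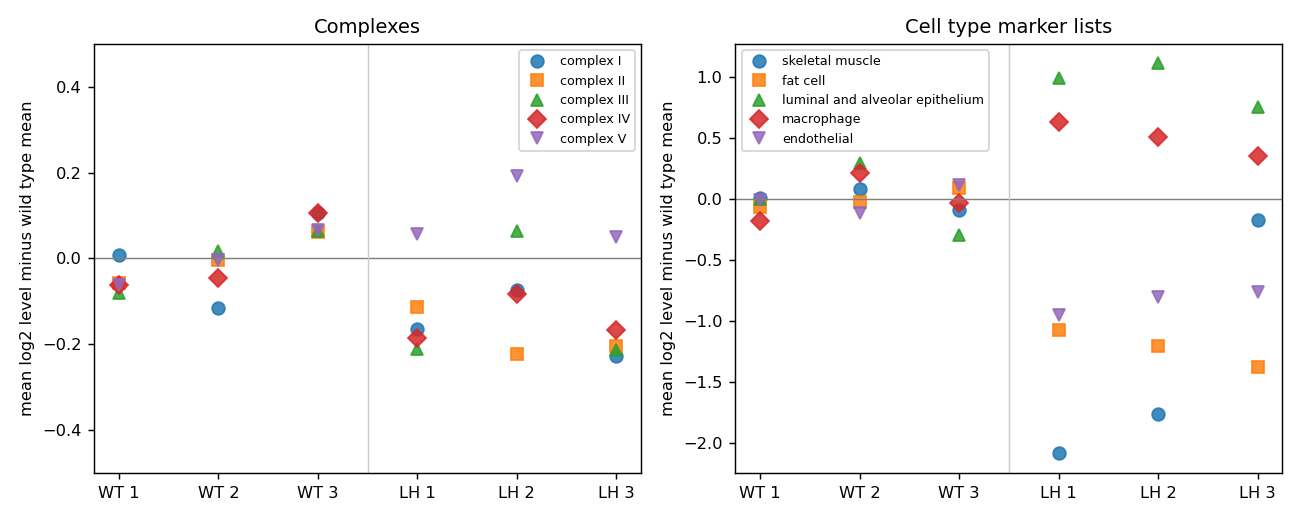
Mean log2 level of each complex (left) and of 5 cell type marker lists (right) on each array, minus the mean of the wild type (WT) arrays. The complexes stay within 0.23 of the wild type mean on every array, while the skeletal muscle list lies at -2.09 and -1.77 in LH pools 1 and 2 and at -0.17 in LH pool 3.

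Complex I is built from an N module that oxidises NADH, a Q module that reduces ubiquinone and a proton-pumping membrane arm. The N module had 8 tested probe sets, 6 of them below 0 (median -0.24). Ndufv1, the flavoprotein subunit where NADH binds, had 17786.7, 16249.6 and 19594.1 in the wild type pools and 13732.2, 15130.4 and 11658.3 in the LH transgenic pools. All LH transgenic signals lay below all wild type signals. The difference was -0.41 (SE 0.13, 95% interval -0.71 to -0.11, limma adjusted p 0.0578), so it did not pass the threshold. It did pass after quantile normalization (-0.46, adjusted p 0.0303) and without LH transgenic pool 2 (-0.49, adjusted p 0.0446).

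Ndufs1, the largest iron-sulfur subunit of the N module, had 4469.0, 4357.0 and 5071.8 in wild type and 4137.6, 3156.1 and 3964.3 in LH transgenic glands, with a difference of -0.30 (limma adjusted p 0.164). Its groups did not overlap, and the gap between them was small beside their spread. Ndufa7, an accessory subunit of the N module, had 16020.9, 16443.5 and 17475.7 against 12419.2, 14483.2 and 14687.7 (-0.27, adjusted p 0.137). Ndufv2, the other flavoprotein subunit, lay on the other side, with 9435.6, 9579.9 and 8966.8 against 9761.0, 11264.3 and 9640.1 for its brighter probe set (0.13, adjusted p 0.477). The groups of Ndufv2 did not overlap either, but LH transgenic pool 3 was close to the highest wild type pool.

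The Q module (Ndufs3, Ndufa5 and Ndufa9) had differences of -0.07, 0.05 and -0.25. The membrane arm had 16 tested probe sets, 13 of them below 0, with a median of -0.21 and a range of -0.50 to 0.74. Both ends of that range were uneven between pools. Ndufb3, a small subunit of the outer membrane arm, had 10736.5, 6983.8 and 10483.7 in wild type and 5556.2, 5158.8 and 9498.6 in LH transgenic glands (-0.50, adjusted p 0.177). LH transgenic pool 3 lay among the wild type pools, and without it the difference was -0.78 (adjusted p 0.0227). Ndufab1, the mitochondrial acyl carrier protein that is also a subunit, was also highest, among the LH transgenic pools, in pool 3, with 8771.5, 7984.7 and 11212.1 against 6411.7, 6170.2 and 9103.8. Its difference was -0.37 (adjusted p 0.183) and -0.55 without LH transgenic pool 3 (adjusted p 0.0391). After adjustment for the skeletal muscle level, Ndufb3 had a difference of 0.06 (SE 0.28). Ndufb3 and Ndufab1 were singled out after their values were seen.

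The highest difference in complex I, 0.74 (SE 0.38, adjusted p 0.197), came from a dim probe set of Ndufa3. Its wild type signals were 493.2, 105.6 and 417.4, so wild type pool 2 stood apart, and its LH transgenic signals were 516.4, 590.3 and 542.2. A brighter probe set of Ndufa3 had 11256.8, 11449.1 and 15797.1 against 10554.9, 12576.0 and 9461.3, with a difference of -0.23 (adjusted p 0.358). The gene is therefore left without a direction. The assembly factors Ndufaf1 (-0.28, adjusted p 0.162) and Ndufaf4 (-0.18, adjusted p 0.566) were not called. In complex I the groups did not overlap for 10 of 30 probe sets with lower LH transgenic signals (33.3%; 19.8% of all tested) and for 2 with higher ones (6.67%; 20.6% of all).

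Complex II is the smallest of the complexes and also works as an enzyme of the tricarboxylic acid cycle. It held 4 of the 9 calls, in the subunit genes Sdha and Sdhb and the assembly factor genes Sdhaf1 and Sdhaf2. Its median and array levels above include the assembly factors. Sdha, the flavoprotein that oxidises succinate, had 2400.5, 2575.8 and 2915.7 in wild type and 1581.4, 1221.5 and 1632.4 in LH transgenic glands. The lowest wild type pool was well above the highest LH transgenic pool. Sdha fell by 0.80 on the log2 scale (SE 0.15, limma adjusted p 0.00622), to 0.562 of the wild type mean. Among the 9 calls it was the only one to keep an adjusted p under 0.05 when any of the 6 arrays was left out (-0.88 to -0.68). Sdhb, the iron-sulfur subunit that takes the electrons on, had 9217.2, 8760.0 and 10141.8 against 6670.3, 7358.7 and 7100.9, again without overlap. It fell by 0.41 (SE 0.12, adjusted p 0.0353). That call was lost when any wild type array or LH transgenic array 1 or 2 was left out (-0.45 to -0.35, adjusted p 0.0518 to 0.126). The probe set of Sdhb carries the suffix letter s, a mark for probes shared between transcripts, so its signal may not come from Sdhb alone.

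Sdhc and Sdhd, the membrane anchors of complex II that bind heme and ubiquinone, were not called. Sdhc had 12124.5, 11826.0 and 11963.7 against 12646.0, 10407.7 and 10953.5 (-0.08, 95% interval -0.35 to 0.18). Sdhd had 8867.1, 9927.6 and 9338.7 against 11434.9, 8688.2 and 10769.0 (0.13, interval -0.18 to 0.43). The LH transgenic pools lay on either side of the wild type pools for both anchors. Whether the catalytic subunits and the anchors differ from each other in response was not tested.

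The assembly factors of complex II moved in opposite directions. Sdhaf2, which helps attach the flavin to Sdha, had 1056.0, 967.8 and 991.0 in wild type and 733.7, 637.9 and 652.0 in LH transgenic glands, and fell by 0.53 (SE 0.15, limma adjusted p 0.0312). The call was lost when any wild type array or LH transgenic array 2 or 3 was left out (-0.55 to -0.49, adjusted p 0.0534 to 0.104). Sdhaf1, which helps insert iron-sulfur clusters into Sdhb, had 2379.7, 2918.5 and 3045.1 against 4116.4, 5478.9 and 3485.6 in LH transgenic glands. It rose by 0.62 (SE 0.18, adjusted p 0.0374), with all LH transgenic pools above all wild type pools. Sdhaf1 lost its call when any wild type array or LH transgenic array 1 or 2 was left out (0.44 to 0.68, adjusted p 0.0667 to 0.136). Scaled to the bacterial controls, Sdhaf1 lay at -0.06. Its probe set carries the suffix letter f, Affymetrix's mark for probes shared with similar sequences, so its signal may not come from Sdhaf1 alone.

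Beside the 3 falls and 1 rise in complex II, the summed signal of the fat cell markers was 216310.9 to 256342.4 in wild type and 103305.8 to 123394.2 in LH transgenic glands, and no marker had a signal of 0. Endothelial markers summed to 37405.7 to 45223.7 in wild type and to between 18377.7 and 21389.1 in LH transgenic glands. With the fat cell level as a covariate, no probe set on the array was called (562 of 7453 had an unadjusted p under 0.05). The SE of Sdha then rose from 0.15 to 0.97, because the fat cell level separates the groups on its own, so fat cell content and group cannot be told apart here. After adjustment for the skeletal muscle level, Sdha had -0.69 (SE 0.22, adjusted p 0.0932), Sdhb -0.39 (adjusted p 0.179), Sdhaf2 -0.59 (adjusted p 0.126) and Sdhaf1 0.33 (adjusted p 0.423).

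**Figure D3:**
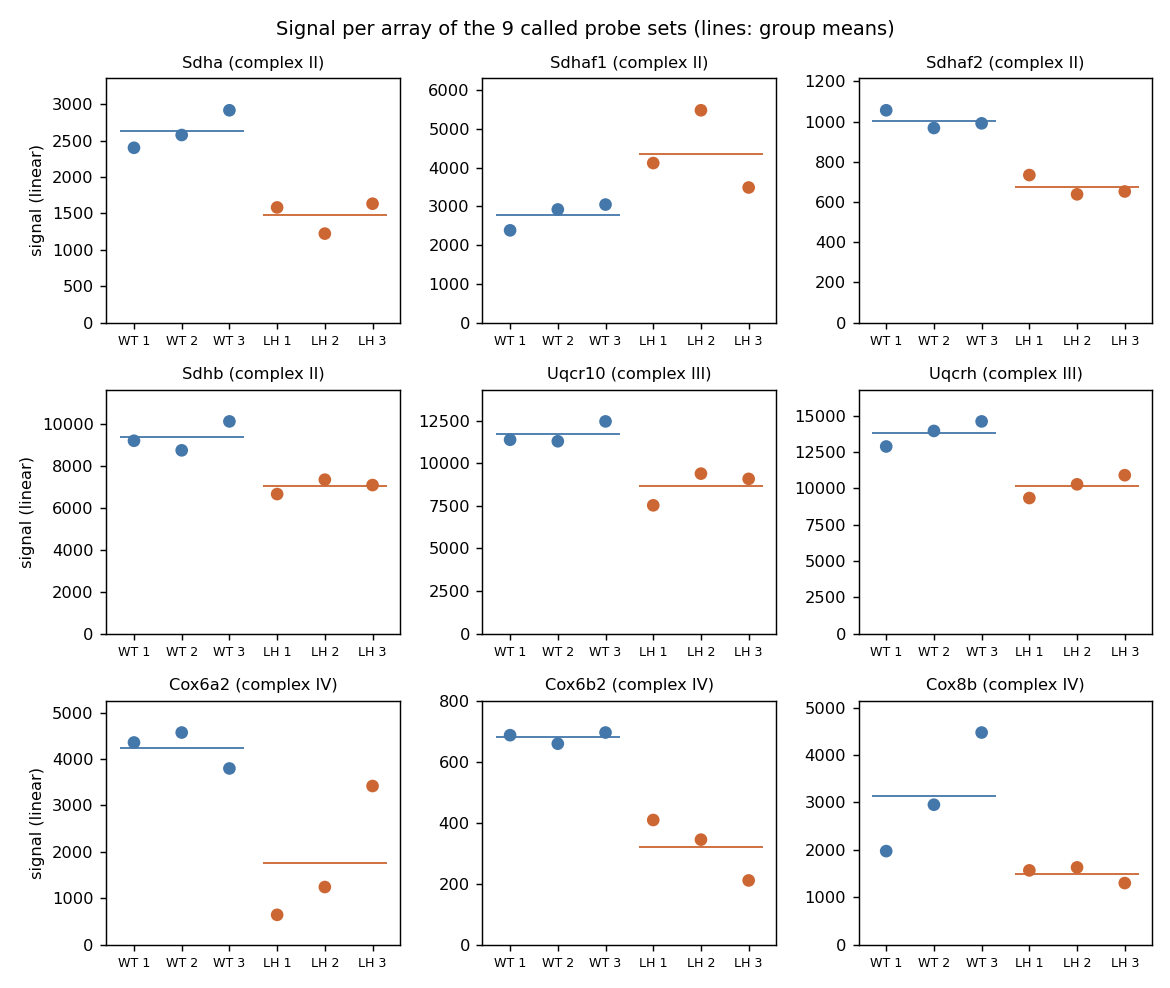
Signal of the 9 called member probe sets on each of the 6 arrays (WT, wild type; LH, LH transgenic; linear axis from 0), with a line at each group mean. The groups do not overlap in any panel, and in the panel of Cox6a2 LH pool 3 lies at 3419.3, near the wild type arrays.

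In complex III the 5 small subunits had differences below 0, and 2 of them were called. The 2 large core proteins had differences above 0 and were not called. Whether small subunits and core proteins differ from each other was not tested. Uqcrh, the hinge protein that helps cytochrome c1 hand electrons to cytochrome c, had 12873.7, 13942.8 and 14599.0 in wild type and 9329.5, 10272.0 and 10899.3 in LH transgenic glands. It fell by 0.44 (SE 0.12, limma adjusted p 0.0260), to 0.736 of the wild type mean. Uqcr10, a small subunit of the membrane part, had 11372.7, 11285.3 and 12448.9 against 7528.0, 9386.4 and 9078.8 and fell by 0.44 (SE 0.13, adjusted p 0.0365). The groups of both genes were apart by more than the spread within either group. Uqcrh lost its call when any wild type array or LH transgenic array 1 or 2 was left out (-0.49 to -0.38, adjusted p 0.0520 to 0.0952). Uqcr10 lost it when any wild type array or LH transgenic array 1 was left out (-0.46 to -0.34, adjusted p 0.0788 to 0.122).

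The other small subunits Uqcr11 (-0.40, adjusted p 0.311), Uqcrb (-0.11, adjusted p 0.516) and Uqcrq (-0.02, adjusted p 0.950) were not called. Uqcr11 ranged from 3783.8 to 8692.8 among the LH transgenic pools alone. Uqcrc2, a core protein of complex III, had 7460.3, 8076.6 and 7681.7 in wild type and 8624.2, 11842.9 and 10328.0 in LH transgenic glands. Its groups did not overlap, with a difference of 0.39 (adjusted p 0.0709) that passed without LH transgenic pool 1 (0.51, adjusted p 0.0385). The probe set of Uqcrc2 carries the suffix letter f, so its signal may not come from Uqcrc2 alone. Uqcrc1, the other core protein, had 10235.2, 10138.2 and 12161.8 against 12936.3, 12771.4 and 10835.4, which overlap (0.17, adjusted p 0.397). Scaled to the bacterial controls, both core proteins lay below 0 (-0.29 and -0.52). Cyc1, the cytochrome c1 subunit that the prefix rule leaves out, had a difference of 0.12 (adjusted p 0.473).

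The tissue forms of complex IV are given in turn, and the difference between forms was not tested. Of its widely expressed forms, 8 probe sets of 7 genes were tested, 0 were called and 7 had a difference above 0 (median 0.19); 2 had an unadjusted p under 0.05. Cox6a1, the form of subunit VIa found in most tissues, had 23488.8, 27769.5 and 30011.5 in wild type and 30703.6, 36971.7 and 36226.2 in LH transgenic glands. Its lowest LH transgenic pool was just above its highest wild type pool (0.36, SE 0.13, limma adjusted p 0.0814). Cox6c had 20829.8, 22243.7 and 24618.1 against 28386.3, 27206.6 and 27341.8 (0.30, adjusted p 0.0841), also without overlap. The tested probe sets of Cox6a1 and Cox6c and the brighter one of Cox4i1 carry the suffix letter f. Their signals may therefore not come from these genes alone. Cox7a2, the widely expressed form of subunit VIIa, had 16235.7, 16163.6 and 16980.1 against 16302.7, 19274.3 and 15876.6 (0.05, 95% interval -0.21 to 0.32). Its groups overlapped.

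Cox4i1, the widely expressed form of the largest nuclear subunit, had differences of 0.18 and 0.34 on its 2 probe sets, and neither was called (adjusted p 0.401 and 0.286). Cox6b1 (0.20), Cox7b (0.13) and Cox5b (-0.07) were not called, with adjusted p of 0.461, 0.457 and 0.809. Cox7a2l, which ties complexes III and IV into supercomplexes, had a difference of 0.01 (interval -0.28 to 0.30). Scaled to the bacterial controls, all of the widely expressed forms and Cox7a2l lay below 0, as most probe sets did.

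Cox6a2, the form of subunit VIa of heart and skeletal muscle, had 4356.8, 4570.7 and 3797.3 in wild type and 645.4, 1244.2 and 3419.3 in LH transgenic glands. LH transgenic pools 1 and 2 were far below the wild type pools and pool 3 was just below them. Cox6a2 fell by 1.52 on the log2 scale (SE 0.45, limma adjusted p 0.0379), the largest difference of any tested member. The muscle genes Myh4, a fast myosin heavy chain, and Acta1, skeletal actin, were also highest, among the LH transgenic pools, in pool 3. Myh4 had 11781.4, 12685.9 and 10755.5 against 1493.3, 1384.4 and 8479.2, and Acta1 28133.1, 33832.4 and 28605.6 against 7687.9, 9405.9 and 32526.4. The summed signal of the 18 tested skeletal muscle genes was 120674.5 to 137455.3 in wild type, and 27561.0, 32140.4 and 109446.3 in LH transgenic pools 1, 2 and 3, with no marker at 0.

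After adjustment for the skeletal muscle level, the difference of Cox6a2 was -0.06 (SE 0.23, adjusted p 0.893). The muscle level itself was 11.83 to 12.00 log2 units in wild type and 9.83, 10.16 and 11.75 in LH transgenic pools 1, 2 and 3. The adjustment therefore also takes up part of the group difference, here and for the other members. Without LH transgenic pool 3 the unadjusted difference of Cox6a2 was -2.14, and without LH transgenic pool 1 it was -1.001 (adjusted p 0.0965). The call was also lost without LH transgenic pool 2 or any wild type pool (-1.60 to -1.001 over these settings and pool 1, adjusted p 0.0862 to 0.0965). Of the muscle forms of the rule, Cox7a1 was below the level for testing, with 172.0, 367.6 and 475.0 against 121.2, 249.9 and 379.2.

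Cox8b, the form of subunit VIII of muscle and brown fat, had 1974.8, 2952.9 and 4474.2 in wild type and 1568.9, 1631.9 and 1301.6 in LH transgenic glands. It fell by 0.95 (SE 0.25, limma adjusted p 0.0255) on a probe set whose suffix letter r marks probes picked under relaxed rules. A dimmer probe set of the gene, without a suffix letter, had -0.71 and was not called (adjusted p 0.0989). Unlike Cox6a2, the called probe set was lowest in LH transgenic pool 3, the pool with muscle markers near the wild type level. The dimmer probe set had 388.2, 449.6 and 783.8 against 222.2, 285.4 and 367.2. On it pool 3 was the highest LH transgenic pool, as for Cox6a2, so the probe sets disagreed on this pool. On both probe sets the wild type pools of Cox8b were uneven, with pool 3 highest. Ucp1, the uncoupling protein that defines brown fat, had 167.1, 1248.2 and 3953.8 in the same wild type pools and 145.3, 215.8 and 961.5 in the LH transgenic pools (adjusted p 0.295). Dio2, a deiodinase of brown fat, was also highest in wild type pool 3, at 1086.9 against 289.3 and 430.5. Cidea, another brown fat gene that mammary epithelium also makes, had 2682.2, 2668.6 and 4923.3 against 7322.6, 7015.3 and 2827.8 (0.67, adjusted p 0.218) and was highest in LH transgenic pools 1 and 2. Ppara, a nuclear receptor of fatty acid oxidation, had 275.0, 420.3 and 342.3 against 366.9, 557.6 and 563.2 (0.43, adjusted p 0.219). These 4 were the tested genes among 8 listed brown fat genes that are no members; 2 lay below 0, 2 above 0, and 0 were called by limma. Their part in the fall of Cox8b was not tested.

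Without wild type pool 3 the difference of Cox8b was -0.67 (adjusted p 0.0696). The call was lost too when wild type array 2 or LH transgenic array 1 or 3 was left out (-0.99 to -0.86, adjusted p 0.0600 to 0.0645). After adjustment for the skeletal muscle level, it was -1.19 (SE 0.39, adjusted p 0.0921), and on the dimmer probe set -0.40 (SE 0.41, adjusted p 0.576).

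**Figure D4:**
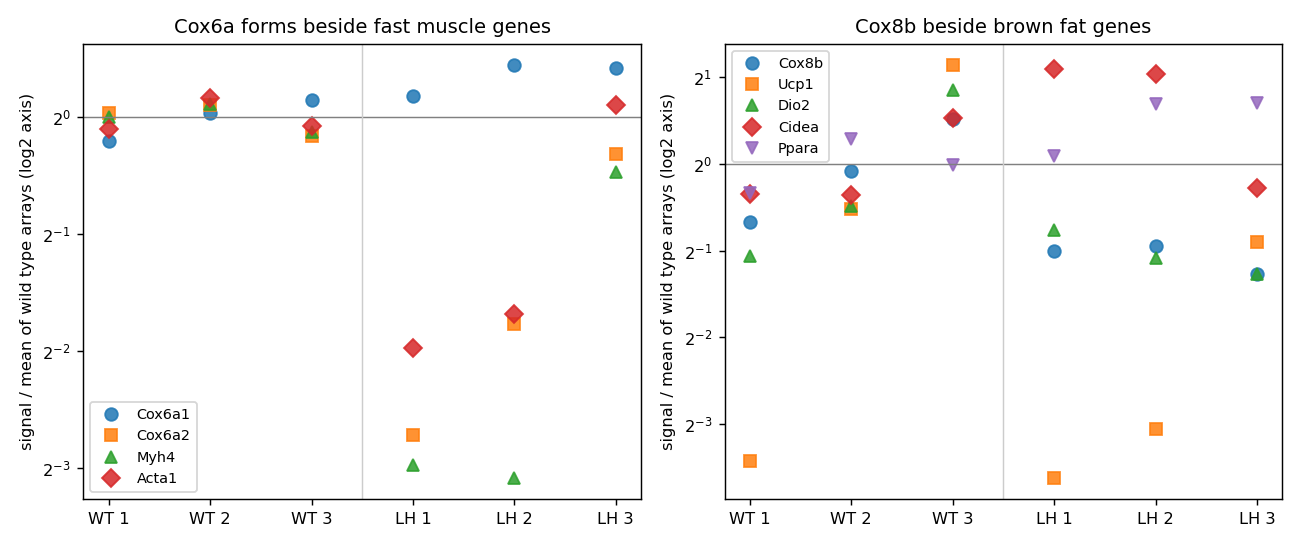
Signal divided by the mean of the wild type arrays (log2 axis) on each array for Cox6a1, Cox6a2, Myh4 and Acta1 (left) and for Cox8b and the 4 tested brown fat genes Ucp1, Dio2, Cidea and Ppara (right). In the left panel Cox6a2 stands with the muscle genes, low in LH pools 1 and 2 and near wild type in LH pool 3, and in the right panel Cox8b, Ucp1 and Dio2 are highest in WT pool 3 while Cidea and Ppara are highest in LH pools.

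Cox6b2 and Cox8c are forms known from testis. Cox8c had 1702.8, 1822.9 and 1483.1 in wild type and 1660.4, 1771.2 and 1716.0 in LH transgenic glands (0.04, adjusted p 0.861). Probe sets of Cox6b2 disagreed. One had 687.4, 659.5 and 696.1 against 409.3, 344.9 and 211.1 and fell by 0.96 (SE 0.22, limma adjusted p 0.0151). Another had 390.5, 172.0 and 301.0 against 530.5, 413.1 and 291.6, with a difference of 0.44 (adjusted p 0.324). The remaining probe set was too dim to test. The probe sets carry the suffix letters f, r and i, which mark probes that are shared with similar sequences or were picked under relaxed rules. The first probe set lost its call without wild type pool 1 or 3 (-0.95 and -0.94, adjusted p 0.0526 and 0.0569), and the direction of the gene is not settled.

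Complex V had no call, and its 15 tested probe sets lay between -0.13 and 0.43. Atp5a1, the alpha subunit of the catalytic head, had 21096.3, 21772.9 and 21191.6 in wild type and 27067.5, 26881.6 and 25056.2 in LH transgenic glands. All LH transgenic pools lay above all wild type pools by more than the spread of either group, with a difference of 0.30 (SE 0.10, 95% interval 0.07 to 0.53, limma adjusted p 0.0640). Atp5o, which joins the head to the peripheral stalk, had 9627.7, 9842.6 and 10692.2 against 14067.2, 14099.1 and 11138.9 (0.37, interval 0.08 to 0.67, adjusted p 0.0706). Its LH transgenic pool 3 was close to the wild type pools, and without that pool it passed the threshold (0.48, adjusted p 0.0182). With array weights both passed (0.32 and 0.43, adjusted p 0.0404 and 0.0232). Scaled to the bacterial controls, they were -0.39 and -0.31.

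The gamma subunit gene Atp5c1 had differences of 0.12 and 0.02 on its 2 tested probe sets. The brighter had 15570.7, 15477.5 and 17013.3 against 15928.1, 15041.3 and 17895.3 (95% interval -0.24 to 0.28), so the groups overlapped fully. Atp5d, the delta subunit, had 3 tested probe sets with 0.43, 0.22 and 0.03, none called. Atp5g2, a gene of the proton-carrying c ring, had 2583.4, 2582.2 and 2629.2 against 2411.7, 2688.3 and 2759.5 (0.01, interval -0.27 to 0.29). The stalk genes Atp5j (-0.12) and Atp5pb (0.16) and the small membrane subunits Atp5k (-0.13), Atp5md (-0.07), Atp5l (-0.03) and Atp5mpl (0.21) were not called either. Atp5e, the epsilon subunit, had -0.02.

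The 27 probe sets below the level for testing had no signal above 475.0 on any array. They left 9 genes without a tested probe set, namely Cox5a, Cox7a1, Cox8a, Ndufa1, Ndufa12, Ndufc2, Ndufs4, Atp5g1 and Atp5j2. Of the 73 genes 20 had several probe sets, and 8 had several that were tested. Among those 8, Cox6b2 and Ndufa3 had probe sets on opposite sides of 0. Of the 100 probe sets 37 carry a suffix letter. The 25 of them that were tested had a median difference of 0.02, and the 48 tested without a letter had -0.19.

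Neighbouring steps of mitochondrial metabolism were read from lists written with earlier results of these data known. The counts of all these lists stand beside 10.5% of all tested probe sets that rose and 10.8% that fell. No list was tested as a set. Of 16 tested genes of the tricarboxylic acid cycle and its entry enzymes 2 fell and 0 rose, with a median of -0.26. These were Pcx, which makes oxaloacetate from pyruvate, from 5342 ± 380 to 2302 ± 632 (SD, n = 3; -1.22, limma adjusted p 0.00307), and Ogdh of the 2-oxoglutarate dehydrogenase complex (-0.56, adjusted p 0.0463). Of 17 electron carriers and assembly factors of the chain 3 fell and 0 rose (median -0.24). They were Etfb, a subunit of the flavoprotein that brings electrons from fatty acid oxidation (-0.66, adjusted p 0.0128), Coq9, needed to make ubiquinone (-0.67, adjusted p 0.0298), and Foxred1, an assembly factor of complex I (-0.63, adjusted p 0.0404). Cycs, cytochrome c, had 1479.4, 1064.5 and 1387.9 against 1032.5, 815.9 and 1007.2 and was not called (-0.42, adjusted p 0.109).

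Of 44 tested genes of the mitochondrial ribosome 1 rose, Mrps12 (0.56, limma adjusted p 0.0188), and 1 fell, Mrps31 (-0.60, adjusted p 0.0240), with a median of 0.02. Of 23 genes of import, porins and chaperones 1 rose, Vdac2 (0.54, adjusted p 0.0220), and 1 fell, the protease gene Lonp1 (-0.47, adjusted p 0.0324), with a median of -0.07. Of 9 genes of uncoupling and mitochondrial antioxidant defence 1 rose, Ucp3 (0.73, adjusted p 0.0480), with overlapping groups.

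Among regulators of mitochondrial biogenesis 8 were tested, 1 rose and 0 fell. Esrra, the estrogen-related receptor alpha that drives oxidative metabolism genes, had 2664.8, 2958.4 and 2380.7 in wild type and 4110.9, 5354.2 and 3483.2 in LH transgenic glands and rose by 0.66 (SE 0.17, limma adjusted p 0.0235). The groups did not overlap. Ppargc1a, the coactivator of that receptor, was too dim to test, with at most 64.8 on any array. Of 18 glycolysis genes 3 rose and 5 fell, with a median of -0.31. This list shares Eno3 (-0.98) and Pgam2 (-1.41), neither of them called, with the skeletal muscle markers. The liver-type phosphofructokinase gene Pfkl rose by 0.88 (adjusted p 0.00400), while Pfkp and the muscle form Pfkm fell by 1.60 and 1.01 (adjusted p 0.000927 and 0.00765), so forms of 1 enzyme moved in opposite directions. Pgk1 (0.75) and the lactate transporter gene Slc16a1 (0.79) rose and Hk2 (-1.11) fell. The mitochondrially encoded subunits had 0 single-gene probe sets under the symbols searched and were not analysed here.

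**Figure D5:**
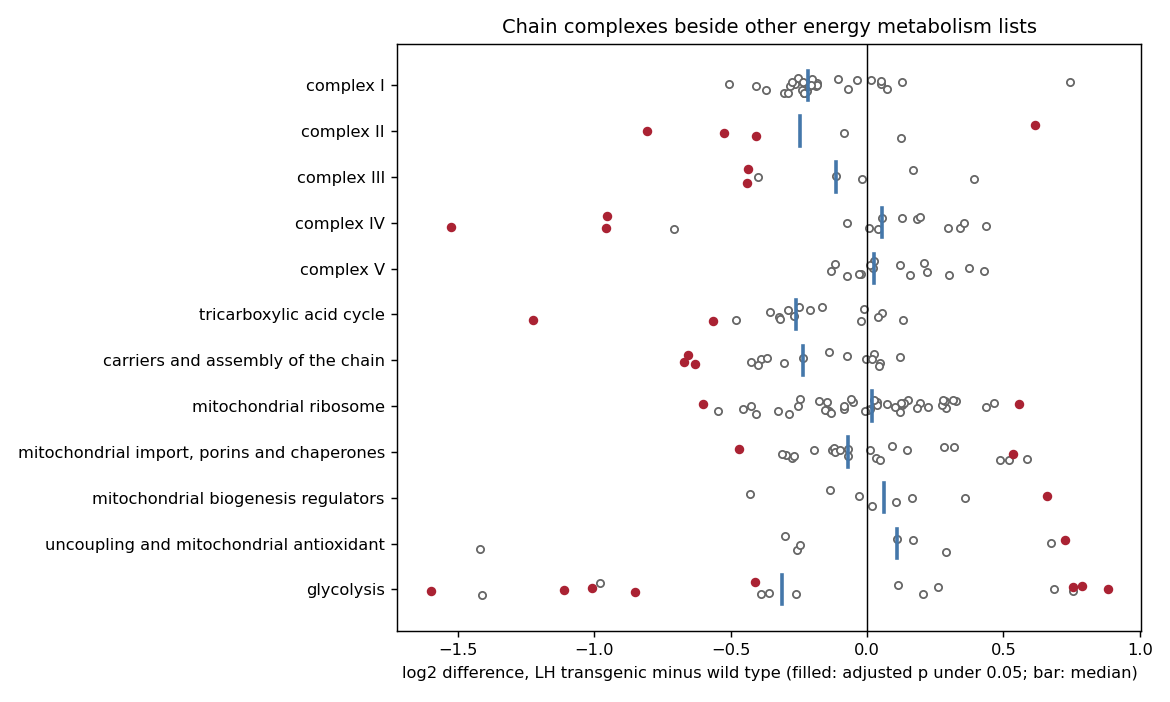
Log2 difference (LH transgenic minus wild type) of each tested member of the 5 complexes and of each tested gene of 7 other lists, with filled points at an adjusted p under 0.05 and a bar at each median. The medians run from -0.31 for glycolysis to 0.11 for uncoupling and antioxidant genes, and the point furthest to the left among the complexes is Cox6a2 at -1.52.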

How the data were processed

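The deposited values are linear intensities, 1 for each probe set on each array, which the authors computed with MAS5 according to the submitters' processing notes. The sources used here give no software version, detection call or genome build. Arrays were grouped by source name, and pool numbers are names only. Members and gene lists were chosen with earlier results of these data known. Genes were named from 10833 probe sets with 1 annotated gene (annotation symbols can be old), and the 66 control probe sets of the 12488 were left out of the tests. The deposited intensities were turned into log2(signal + 79.7), and limma (lmFit and eBayes with a trend, two-sided, no covariate) was run on 7453 probe sets. A gene of a list was represented by its brightest tested probe set, and intervals are limma's 95% intervals.

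Members with full values were the called ones without overlap (up to 4 per direction and complex), the 2 lowest p where a complex had none, complex IV and c ring forms, core subunits and disagreeing probe sets. Genes of other lists were the up to 3 largest calls per direction, with Ppargc1a always. Ndufb3, Ndufab1, Ndufv2, Uqcrc2, Myh4, Acta1, Ucp1, Dio2, Cidea, Ppara, Krt19, Adipoq, Cyc1 and Cycs were chosen after their values were seen, as were the 4 motifs and the module names. The other epithelial, macrophage and muscle markers named above were chosen in the same way. Other members are given by their difference alone. The fit was tested on simulated data. Alternatives were quantile normalization, median centring, scaling to 9 bacterial controls, a floor at 16.8 or 324.3 added, no level filter or one at 933.0, robust or untrended eBayes, array weights, the mean of 18 skeletal muscle or 13 fat cell genes as a covariate, 1 probe set per gene, and leaving out each array. Models ran in limma 3.58.1 with statmod 1.5.0 under R 4.3.3. Tables and figures were made in Python 3.11.15 with matplotlib 3.10.9, numpy 2.4.6 and pandas 2.3.3. The number of arrays limits the precision.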

Additional observations from a re-analysis of the deposited data

How the results depend on the processing

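No paired analysis was possible because the labels give the arrays no replicate number shared between the groups. All 9 calls among the members held under quantile normalization, median centring, a floor, a larger pseudocount, array weights and 1 probe set per gene. With robust eBayes 8 held. With the stricter filter 7 held, and the other calls, Cox6b2 and Sdhaf2, lay below its level and were not tested. With no filter the member counts were 0 higher and 4 lower, and with eBayes without a trend 0 higher and 4 lower; with array weights 3 were higher. Scaling to the bacterial controls gave 0 higher and 56 lower among the members and 140 higher and 3859 lower among all probe sets, with medians of -0.89 for complex I, -0.93 for complex II, -0.80 for complex III, -0.62 for complex IV and -0.64 for complex V. The fat cell covariate gave 0 higher and 0 lower among the members and 0 higher and 0 lower among all by limma, with 5 members and 562 probe sets at an unadjusted p under 0.05 and medians of 0.19 for complex I, 0.077 for complex II, -0.28 for complex III, 0.55 for complex IV and 0.39 for complex V. The skeletal muscle covariate gave 0 higher and 2 lower among the members, 304 higher and 392 lower among all, and medians of -0.041 for complex IV and 0.12 for complex V. The median was -0.083 for complex II with the stricter filter, which left Sdhaf2 untested, and 0.11 for complex V with array weights. When 1 array was left out, member counts ran from 0 to 2 higher and 1 to 8 lower, counts over all probe sets from 434 to 745 higher and 507 to 896 lower, and the median of complex V from 0.0053 to 0.14. The fewest members fell without wild type pool 3.

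Each setting was followed for 35 of the 73 tested member probe sets, and among these 35 the differences below changed sign; the other members were not followed one by one. With bacterial control scaling they were Sdhd (-0.56), Sdhaf1 (-0.058), Uqcrc1 (-0.52), Uqcrc2 (-0.29), Cox4i1 (-0.22), Cox4i1 (-0.47), Cox6a1 (-0.33), Cox6b1 (-0.41), Cox6b2 (-0.12), Cox6c (-0.39), Cox7a2 (-0.63), Cox7a2l (-0.67), Cox7b (-0.56), Cox8c (-0.62), Atp5a1 (-0.39), Atp5o (-0.31) and Atp5g2 (-0.66). With the fat cell covariate they were Ndufv1 (0.71), Ndufs1 (0.13), Ndufa3 (1.24), Sdhc (0.48), Uqcrc2 (-0.28), Cox5b (2.39), Cox6b2 (1.44), Cox7b (-0.16), Cox8b (1.74), Cox8c (-0.48) and Atp5g2 (-0.50). With the skeletal muscle covariate they were Ndufb3 (0.060), Uqcrc1 (-0.030), Cox6b2 (-0.041), Cox7a2 (-0.043) and Cox7a2l (-0.18). With quantile normalization it was Cox7a2 (-0.013), and with array weights they were Cox5b (0.049) and Atp5g2 (-0.028). When 1 array was left out, Atp5g2 ran from -0.028 to 0.066 and changed sign without LH transgenic pool 2 and without LH transgenic pool 3, Cox5b ran from -0.20 to 0.10 and changed sign without wild type pool 3 and without LH transgenic pool 3, Cox7a2 ran from -0.032 to 0.11 and changed sign without LH transgenic pool 2, Cox7a2l ran from -0.086 to 0.083 and changed sign without wild type pool 2 and without LH transgenic pool 1, Cox8c ran from -0.037 to 0.10 and changed sign without wild type pool 3. The cause of these changes was not tested.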
